A study of Mus musculus with 21 samples.

Results

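Bone marrow-derived macrophages that had been given fatty acid together with TAK242, and later lipopolysaccharide (LPS), were compared with macrophages given the same fatty acid and LPS without TAK242. The comparison takes 3 libraries of each kind, chosen by their labels, 6 of the 21 libraries of the series. All 6 came from marrow of C57Bl6/J donors that ate standard chow, with a donor age of 24 weeks in the labels. The cells grew in RPMI-1640 with L929 cell supernatant, a usual source of the macrophage growth factor CSF1. Both groups received 10 mM fatty acid, palmitic to oleic acid at 1:3, during the first 4 days, and 200 nM TAK242 was present in one of them. Cells were then washed, kept to day 7 and given 100 ng/ml LPS for 24 h. The table also holds 3 untreated libraries and 3 with LPS alone, without fatty acid or TAK242. No group had fatty acid without LPS and none had TAK242 without fatty acid, so an action of TAK242 on the response to fatty acid cannot be told apart from one on the later response to LPS. The labels do not say whether a replicate number is an animal or a dish, so the p-values may measure only technical spread.

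TLR4 is the receptor through which macrophages sense LPS, with the accessory proteins MD-2 (Ly96), CD14 and LPS-binding protein (Lbp). Its adaptors MyD88 and TRIF (Ticam1) lead to NF-kB and MAP kinase activity and to interferon production, and a second dose of a TLR4 ligand commonly gives a weaker cytokine response than the first. TAK242 is a small molecule that binds the intracellular domain of TLR4 and blocks its coupling to the adaptors. Saturated fatty acids such as palmitic acid have been studied as triggers or modifiers of TLR4 signalling, and macrophages also handle fatty acid and cholesterol through the nuclear receptors LXR and PPAR.

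The 6 libraries were alike in size, with value sums of 321532 to 386023 and 9326 to 9551 genes at a deposited value of 1 or more. Root-mean-square distances on the log2 scale were 0.302 to 0.343 among the fatty acid libraries, 0.307 to 0.34 among the TAK242 libraries and 0.371 to 0.47 between the groups. TAK242 replicate 3 lay nearest to the fatty acid libraries, at 0.371 to 0.398. Among the libraries outside the comparison, LPS replicate 1 stood apart: it was 0.595 to 0.674 from the TAK242 libraries, against 0.363 to 0.459 for LPS replicates 2 and 3. Few genes without introns were high enough to be tested. Of 1299 protein-coding genes with a single exon 40 were tested (3.08%), against 45.5% of the 20506 others. These shares do not allow for genes that macrophages do not express. Jun, Jund, Cebpb and Ier2 reached at most 0.822 in any of the 12 libraries. Of the single-exon mitochondrial genes, mt-Nd6, on the minus strand, was at 854 to 1600. The 12 others, on the plus strand, reached at most 11.9. Nothing further is said here about genes without introns, and the cause was not tested. Macrophage genes were high in all 6 libraries: Adgre1, which encodes F4/80, lay between 1591 and 1737. Of 11 macrophage identity genes tested 0 passed the adjusted p threshold of 0.05, beside 4.69% of all genes. Their changes ran from -0.96 to 1.03. The groups did not overlap in 2 genes higher and 5 lower with TAK242, against 18.1% and 18.7% of all genes. With the 6 libraries alone 1 rose and 2 fell.

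Of 10476 genes tested with limma, 491 changed (4.69%), of which 315 rose (3.01%) and 176 fell (1.68%). Each count of calls in a gene list below is to be read beside these shares. A count near them, 0 included, is no result about the list. At least a 2-fold change was seen for 43 of those that rose and 28 of those that fell. A change is the log2 difference of log2(value + 1), TAK242 minus fatty acid alone, with n = 3 in each group and limma's adjusted p. The median change over all genes was near 0, with 5221 changes positive and 5255 negative. The number of calls was below 491 whichever of the 6 libraries was left out. It ranged from 63 without TAK242 replicate 2 to 305 without fatty acid replicate 1. Leaving out a library also makes its group smaller, and the cause of the drop was not tested. The fatty acid replicates gave 91 calls without replicate 2 and 66 without replicate 3, and the TAK242 replicates gave 114 without replicate 1 and 297 without replicate 3. In the fit and in each of these 6 fits 52 genes were called (0.496%), 31 higher and 21 lower. They are named below as calls that held without each library. For the others, the text gives the highest adjusted p that leaving out a library gave.

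**Figure D1:**
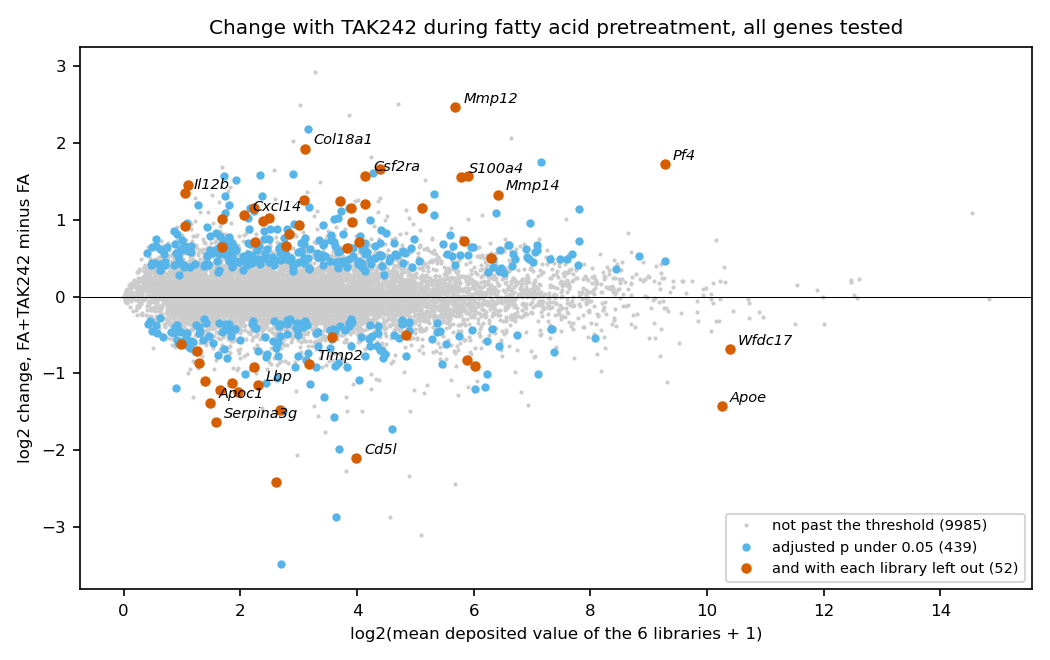
Log2 change with TAK242 (vertical axis) against the log2 mean level of the 6 libraries (horizontal axis) for 10476 genes, with 439 genes past the threshold in blue and the 52 that also held without each library in orange. Mmp12 lies at the upper end of the orange points, at 2.46, and Cd5l is among the lowest, at -2.11.

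Matrix metalloproteinases, which cut the proteins around cells, and their inhibitors moved in both directions. Of 11 proteases and inhibitors tested, 3 rose and 3 fell, beside 3.01% and 1.68% of all genes. The median change was 0.46. Those that rose were the proteases Mmp12, Mmp13 and Mmp14, and those that fell were the inhibitors Timp1 and Timp2 and the protease Mmp19. Mmp12 (macrophage elastase, chromosome 9) and Mmp13 (a collagenase, also on chromosome 9) are shown with the 250 bases before their RefSeq starts in GRCm38.p6, both on the plus strand, because both rose and both windows hold an AP-1 motif, the letters TGANTCA, in capitals. The Mmp12 window is chr9:7347124-7347373, at one of 2 starts in the RefSeq table, and the Mmp13 window is chr9:7272264-7272513.
Mmp12: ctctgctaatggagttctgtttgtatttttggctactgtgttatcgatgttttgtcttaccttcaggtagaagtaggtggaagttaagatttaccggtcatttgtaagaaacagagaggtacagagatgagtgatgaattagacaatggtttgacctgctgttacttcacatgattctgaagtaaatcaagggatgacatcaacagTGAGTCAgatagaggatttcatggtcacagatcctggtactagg
Mmp13: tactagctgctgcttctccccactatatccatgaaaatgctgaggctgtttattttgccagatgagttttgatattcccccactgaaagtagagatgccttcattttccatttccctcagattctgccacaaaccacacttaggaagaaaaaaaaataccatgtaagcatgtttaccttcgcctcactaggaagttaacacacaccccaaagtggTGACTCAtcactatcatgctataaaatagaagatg
On either strand, 6.75% of 32851 windows of this length hold these letters. Of the 8 protease and inhibitor genes with a window, 2 held them. A match describes the letters and is not a test of binding.

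Mmp12 stood at 17.3, 16 and 10.9 in the fatty acid libraries and at 78.8, 108.5 and 70.2 in the TAK242 libraries. Every TAK242 library was above every fatty acid library, and the rise was 2.46 (standard error 0.36, adjusted p = 0.00693). Mmp14, a membrane-anchored protease that activates other proteases, was at 49.1, 45.9 and 46.9 with fatty acid and at 117.6, 138.6 and 106.7 with TAK242. Its groups were also apart, and it rose by 1.33 (standard error 0.17, adjusted p = 0.00338). Mmp13 went from 18.9 to 22.6 across the fatty acid libraries to 38.9 to 54.8 across the TAK242 libraries (1.16, adjusted p = 0.00776). Timp2, an inhibitor of these enzymes, moved the other way, from 10.4 to 11 down to 4.86 to 5.92 (-0.88, standard error 0.11, adjusted p = 0.00385). These 4 calls held without each library. Timp1 fell by 0.54 (adjusted p = 0.0146, up to 0.0742 with a library left out), and Mmp19 fell by 0.55 (adjusted p = 0.0361, up to 0.149), although Mmp19 overlaps Tmem198b on the other strand. Mmp8 and Mmp9, the neutrophil collagenase and gelatinase B, did not pass, with changes of 0.63 (adjusted p = 0.28) and 0.74 (adjusted p = 0.356).

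Collagens and other matrix genes lay higher in the TAK242 libraries. Of 11 tested, 6 rose and 0 fell, beside 3.01% of all genes that rose. All 11 changes were positive and the median was 0.65. In 10 of 11 the groups did not overlap, against 18.1% of all genes with higher TAK242 libraries. Col18a1, a basement membrane collagen that is the source of endostatin, read 2.92, 2.61 and 2.22 with fatty acid and 12.9, 13.2 and 11.7 with TAK242. The 2 groups were far apart (1.93, standard error 0.13, adjusted p = 0.000177), and the call held without each library. Col1a1 and Col1a2, the chains of fibrillar collagen I, rose by 1.57 (adjusted p = 0.0204) and 1.59 (adjusted p = 0.0315). Fn1, which encodes fibronectin, was at 0.816 to 1.06 with fatty acid and 4.35 to 4.78 with TAK242 (1.51, adjusted p = 0.0376). Col4a2, of collagen IV, and Lamc1, a laminin chain, rose by 0.95 (adjusted p = 0.0289) and 0.65 (adjusted p = 0.0363). With a library left out, 1 to 3 of the 11 were called, and without a filter on low values 1 was called. The highest adjusted p of these 5 with a library left out ran from 0.0993 for Col1a1 to 0.135 for Fn1. Outside the list, Ltbp3, which helps to store latent TGF-beta in the matrix, rose from between 2.4 and 3.19 to between 6.14 and 6.81 (1.02, adjusted p = 0.00254). Agrn, the basement membrane proteoglycan agrin, rose from between 2.29 and 2.79 to between 5.16 and 7.03 (0.98, adjusted p = 0.00254), and both calls held without each library.

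Markers of stromal cells include collagens of the list above. The summed level of the marker list was 17.2 to 20.98 with fatty acid, 27.06 to 32.76 with TAK242, 34.29 to 69.55 with LPS alone and 20.41 to 32.68 in untreated cells. Of 6 stromal markers tested 2 rose, Col1a1 and Col1a2, beside 3.01% of all genes that rose. Both also stand in the matrix list. Among the stromal markers 1 change was negative and the median was 0.18. Cxcl12, Lum, Pdgfra and Pdgfrb were below the filter. In bulk samples, fewer cells of a type cannot be told apart from less RNA per cell. The part of stromal cells in the matrix result was not tested.

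**Figure D2:**
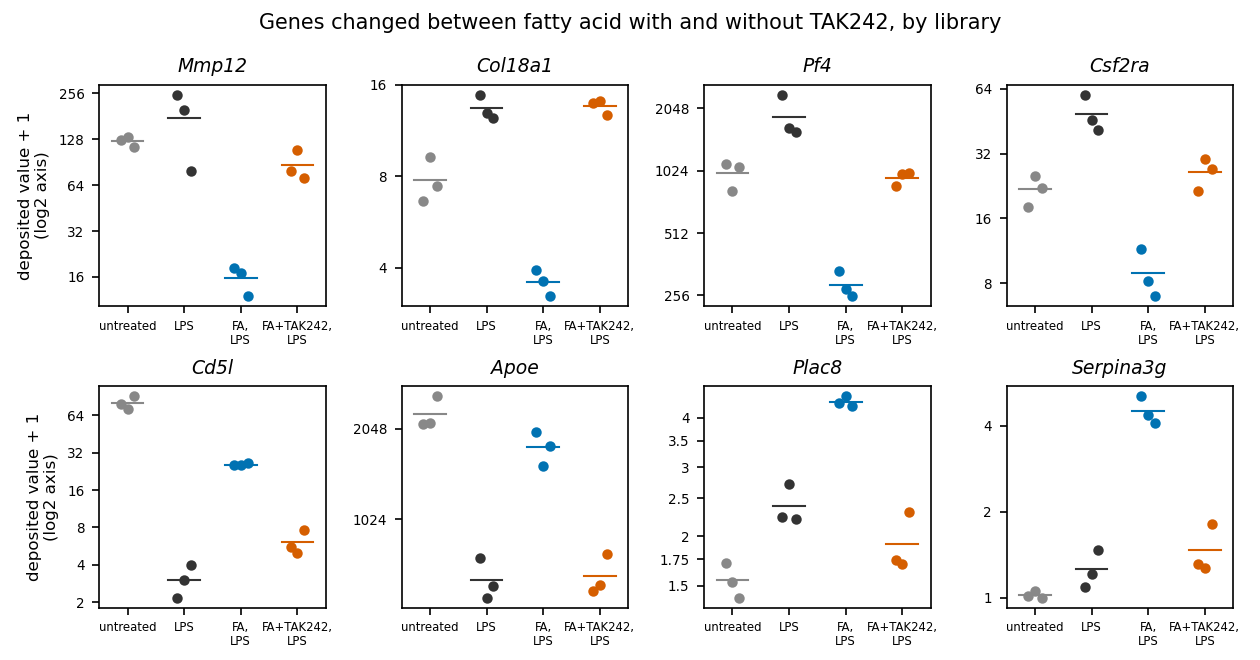
Deposited value + 1 on a log2 axis for 8 genes whose calls held without each library, by group (FA, fatty acid); points are the 3 libraries and bars their mean. Mmp12, Col18a1, Pf4 and Csf2ra are higher and Cd5l, Apoe, Plac8 and Serpina3g lower in the TAK242 libraries than in the fatty acid libraries, with no overlap.

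The LPS receptor itself did not pass the test. Tlr4 was at 2.7, 2.74 and 2.98 with fatty acid and at 2.52, 2.53 and 2.39 with TAK242, a change of -0.13 with a 95% confidence interval of -0.30 to 0.04 (limma, adjusted p = 0.345). Ly96 stood lower in all 3 TAK242 libraries, at 36.3 to 41.5 against 46.5 to 49.3 (-0.33, adjusted p = 0.06). The adaptor gene Myd88 was at 33.7 to 36.7 against 38.8 to 46.7 (-0.26, adjusted p = 0.189), and Ticam1 was below the filter. Of 20 genes of the receptor complex and its signalling proteins 0 rose and 1 fell, beside 4.69% of all genes called. The median change was 0.08. The gene that fell was Lbp, which encodes the carrier protein that hands LPS to CD14. Lbp stood at 5.69, 5.75 and 5.87 with fatty acid and at 1.7, 2.04 and 2.4 with TAK242, so the groups were well apart (-1.16, standard error 0.12, adjusted p = 0.00154), and the call held without each library.

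Cytokine genes downstream of the receptor gave calls in both directions. Of 13 tested 1 rose and 1 fell, beside 4.69% of all genes called, with a median of 0.20; with the 6 libraries alone 3 rose and 3 fell. Il12b, which encodes the p40 chain of IL-12 and IL-23, was near the floor with fatty acid (0.211, 0.179 and 0.114) and at 1.78, 2.53 and 1.64 with TAK242. The groups did not overlap and the call held without each library (1.34, standard error 0.17, adjusted p = 0.00338). Il10, an anti-inflammatory cytokine, went the other way, from 12, 9.13 and 9.38 to 4.71, 6.1 and 6.22 (-0.74, adjusted p = 0.0339, up to 0.106 with a library left out). Tnf showed overlapping groups, at 17.9, 12.9 and 11.5 against 13.8, 21.4 and 14.1, and its interval ran from -0.66 to 1.05 (adjusted p = 0.799). Il6 had separate groups, at 0.17 to 0.471 against 0.951 to 4.36 (1.28, adjusted p = 0.231), and a change of 2.55 with a pseudocount of 0.1 (adjusted p = 0.0736).

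Several LPS-response genes had separate groups but did not pass in the fit of all 12 libraries. Il1b, the interleukin-1 beta gene, was at 45.1, 30.7 and 28.2 with fatty acid and at 145.4, 260.4 and 79.9 with TAK242 (2.06, adjusted p = 0.084). Cxcl3, a chemokine that draws neutrophils, was at 1.11, 1.13 and 1.02 against 16.1, 24.6 and 8.15, and had the largest positive change of all genes tested (2.93, adjusted p = 0.137). In both genes the highest fatty acid library lay below the lowest TAK242 library. In the LPS libraries, which enter the shared spread, Cxcl3 ranged from 28.1 to 1531, with replicate 1 the highest. Cxcl2, a related chemokine, was at 2.5 to 4.75 against 12.4 to 33.7 (2.36, adjusted p = 0.177), and Cd14 at 15.6 to 21 against 26.9 to 52.7 (1.03, adjusted p = 0.0843). Without LPS replicate 1 these 4 were called, with limma adjusted p of 0.0126 for Il1b, 0.00507 for Cxcl3, 0.00893 for Cxcl2 and 0.0237 for Cd14. With the 6 compared libraries alone they were 0.0357, 0.0109, 0.0198 and 0.0463. Il6 was called without LPS replicate 1 (limma adjusted p = 0.0497) and not with the 6 libraries alone (0.0675). Calls over all genes also went up in these fits, from 491 to 1227 without LPS replicate 1 and to 1110 with the 6 libraries alone. The cause was not tested.

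Pf4, a CXC chemokine of platelets and macrophages, also rose. It read 336.5, 273.7 and 252.5 with fatty acid and 866.4, 983.6 and 994.9 with TAK242, with no overlap (1.73, standard error 0.18, adjusted p = 0.00124), and the call held without each library. Of 9 platelet markers 1 was tested, Ppbp, and it did not pass; the summed level of the list was 1.302 to 1.805 against 0.8363 to 1.492, and Gp5 was listed at 0 in all 6 libraries. Cxcl14 rose from between 1.43 and 2.05 to between 4.14 and 4.95 (1.06, adjusted p = 0.00175), also without each library. Among 9 CC chemokines Ccl9 rose by 0.52 (adjusted p = 0.0265, up to 0.113). Ccl8, a monocyte attractant, fell from 36.3, 33.9 and 37.5 to 9.64, 7.43 and 14.6 (-1.72, adjusted p = 0.0424, up to 0.166).

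**Figure D3:**
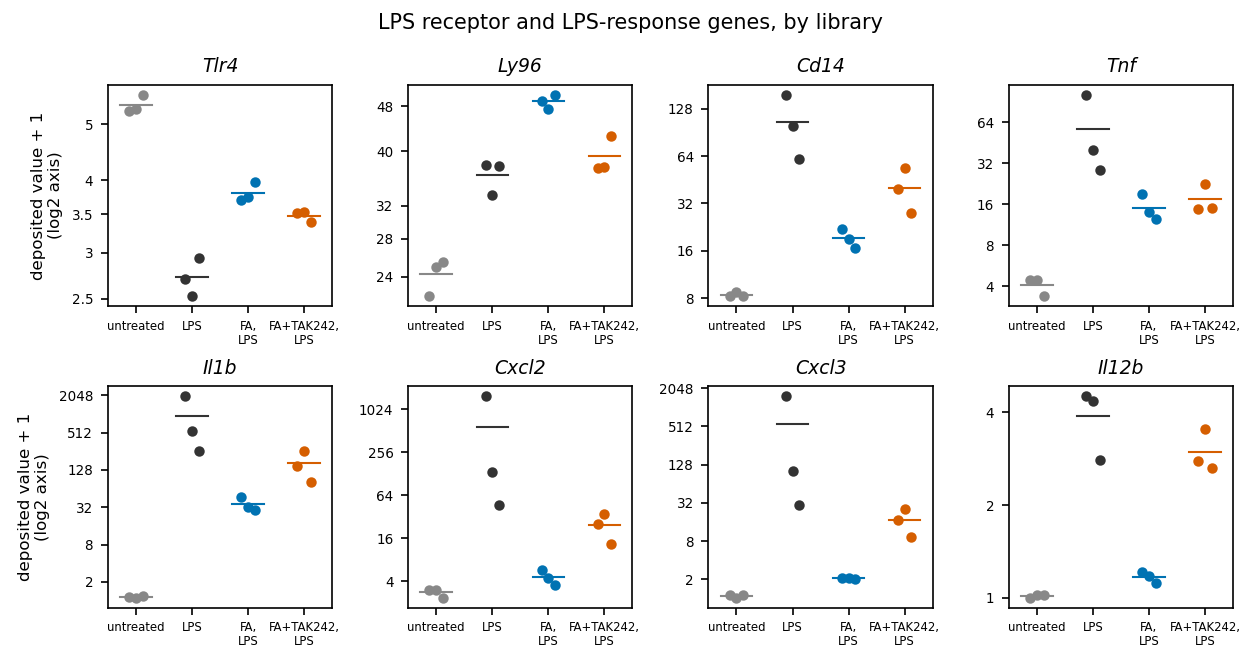
Deposited value + 1 on a log2 axis for LPS receptor genes (Tlr4, Ly96, Cd14) and LPS-response genes by group (FA, fatty acid); points are the 3 libraries and bars their mean. Il12b was called; Il1b, Cxcl2, Cxcl3 and Cd14 are higher in every TAK242 library without passing the threshold, Tnf overlaps, and LPS replicate 1 is the highest LPS library for Cxcl2 and Cxcl3.

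A list of NF-kB inducible feedback genes, which also holds the NF-kB subunit gene Rel, showed 0 rises and 1 fall among 17. That count stands beside 4.69% of all genes called. Of the changes 12 were positive and 5 negative, with a median of 0.30. The groups did not overlap in 7 genes higher and 3 lower with TAK242, against 18.1% and 18.7% of all genes. Dusp1, a phosphatase that switches off MAP kinases, was at 24.5, 19.4 and 18.9 with fatty acid and at 12.3, 14 and 15.3 with TAK242 (-0.56, adjusted p = 0.0443, up to 0.141 with a library left out). Map3k8, the kinase TPL2 that carries LPS signals to ERK, is no member of that list; it fell from between 12.5 and 13.4 to between 8.24 and 9.28 (-0.52, adjusted p = 0.00523) and held without each library. Csf2ra, the receptor chain for the growth factor GM-CSF, rose from 10.6, 7.22 and 5.96 to 20.4, 29.1 and 26.2 (1.57, standard error 0.21, adjusted p = 0.00513). The groups did not overlap and its call held too.

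Enzymes of arginine and itaconate metabolism lay higher. All 10 changes were positive, with a median of 0.31, and 2 rose, beside 3.01% of all genes that rose. Acod1, which makes itaconate, was at 197.6, 171.0 and 136.2 with fatty acid and at 254.9, 317.0 and 257.4 with TAK242 (0.72, adjusted p = 0.0197, up to 0.0925). Ass1, which regenerates arginine from citrulline, was at 46.6 to 59.4 against 100.9 to 124.7 (1.08, adjusted p = 0.0142, up to 0.0747). Nos2, the inducible nitric oxide synthase, overlapped between the groups (0.26, interval -0.53 to 1.04, adjusted p = 0.704). So did Arg1, arginase 1 (0.11, interval -0.14 to 0.35, adjusted p = 0.605).

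Interferon-stimulated genes lay lower in the TAK242 libraries, mostly short of the threshold. Of 42 tested 0 rose and 2 fell, beside 1.68% of all genes that fell. In this list 37 changes were negative and the median was -0.35. The groups did not overlap in 27, against 18.7% of all genes with lower TAK242 libraries. Iigp1, an interferon-induced GTPase, was at 4.4, 4.28 and 5.05 with fatty acid and at 1.44, 1.25 and 2.85 with TAK242 (-1.01, adjusted p = 0.045, up to 0.174). Oas2, an antiviral enzyme, was at 22.4 to 25.5 against 13 to 17.4 (-0.64, adjusted p = 0.0379, up to 0.152). Gbp2, another GTPase, ran from 245.6 to 290.8 with fatty acid and from 134.9 to 179.7 with TAK242 without passing (-0.80, adjusted p = 0.065). The count of falls was 14 without LPS replicate 1 or with the 6 libraries alone, and 0 without a filter. Tgtp1, a related GTPase with a near-identical copy, Tgtp2, fell by 1.99 (adjusted p = 0.0356, up to 0.136), and its fatty acid libraries were uneven, at 26.9, 6.33 and 27.7.

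Antigen presentation by MHC class II gave 1 rise and 0 falls among 8 genes, beside 4.69% of all genes called. In this list 4 changes were positive and 4 negative, with a median of 0.24. H2-Ab1, the beta chain of I-A, was at 10.6, 8.18 and 6.22 with fatty acid and at 18.7, 22.7 and 17 with TAK242 (1.15, standard error 0.17, adjusted p = 0.00693). The groups were apart, and the call held without each library. Its partner chain H2-Aa was at 6.25 to 7.42 against 11.2 to 12.7 without passing (0.71, adjusted p = 0.142), as was the invariant chain Cd74, at 17.7 to 22.1 against 36.5 to 43.7 (0.94, adjusted p = 0.106). The summed level of the list was lower, at 2505 to 2861 against 3153 to 3467, most of it from Ctss, cathepsin S, a protease that trims the invariant chain (2390 to 2759 against 3091 to 3391; -0.36, adjusted p = 0.185). With the 6 libraries alone 4 class II genes rose. Of the 16 MHC class I and immunoproteasome genes 0 passed the threshold, beside 4.69% of all genes called. Their changes ran from -0.63 to 0.57. Ly75, the endocytic receptor DEC-205, rose from between 0.369 and 0.55 to between 1.42 and 2.09 (0.91, adjusted p = 0.00561) and held.

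Some apolipoprotein and cholesterol export genes fell. Among 14 LXR targets and export genes 0 rose and 5 fell, beside 1.68% of all genes that fell; 4 changes were positive, the median was -0.18, and 3 to 5 fell with a library left out. Cd5l, a secreted macrophage protein whose gene is an LXR target, was at 24.3, 24.5 and 25.4 with fatty acid and at 4.57, 4 and 6.64 with TAK242 (-2.11, standard error 0.21, adjusted p = 0.00098). Apoe, the lipid carrier apolipoprotein E, lay between 1544 and 2004 against 585.4 to 779.5 (-1.43, standard error 0.16, adjusted p = 0.00165). Apoc1, its neighbour on chromosome 7, was at 2.97, 3.14 and 2.98 against 0.738, 0.393 and 0.531 (-1.38, standard error 0.12, adjusted p = 0.000477). In all 3 genes the groups were apart, and the calls held without each library. Pltp, the phospholipid transfer protein, fell by 1.18 (adjusted p = 0.0114, up to 0.0623), and Abcg1, a cholesterol exporter to HDL, by 0.92 (adjusted p = 0.0135, up to 0.0717). Abca1, the exporter to lipid-poor apolipoprotein, read 56.7 to 58.2 with fatty acid and 56.7 to 58.1 with TAK242 (0.01, interval -0.33 to 0.34, adjusted p = 0.988). The LXR alpha gene Nr1h3 was at 51.6 to 59.4 against 46.2 to 55.1 (-0.18, adjusted p = 0.737). Windows of 250 bases were also searched for AGGTCA, 4 bases of any kind and AGGTCA, a direct repeat bound by LXR. Of 10 list members with a window 0 held it, beside 0.0152% of 32851 windows.

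Other genes of lipid handling gave few calls. Lpl, the lipoprotein lipase that frees fatty acid from triglyceride, was at 61.8, 67.3 and 62 with fatty acid and at 211.1, 220.1 and 221.9 with TAK242. The groups were wide apart (1.76, standard error 0.43, adjusted p = 0.0469, up to 0.154). The untreated libraries, which enter the shared spread, stood at 487.3, 113.1 and 117.2. Fasn, fatty acid synthase, rose by 0.59 (adjusted p = 0.0338, up to 0.137) as 1 of 12 synthesis and desaturation genes. Srebf2, the transcription factor of cholesterol synthesis, rose by 0.57 (adjusted p = 0.0319, up to 0.136) as 1 of 23 in its pathway. Of 17 fatty acid oxidation and PPAR target genes and of 11 lipid droplet genes 0 passed the threshold, beside 4.69% of all genes called. Plin2, the lipid droplet coat protein, was at 495.0 to 586.8 against 491.1 to 599.6 (-0.05, interval -0.49 to 0.40, adjusted p = 0.918). Of 18 genes linked to lipid-associated macrophages, Lpl rose and Cst7, cystatin F, fell (-1.21, adjusted p = 0.0339, up to 0.132). Abca7, a lipid transporter outside these lists, rose by 0.81 (adjusted p = 0.0043) and held without each library.

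**Figure D4:**
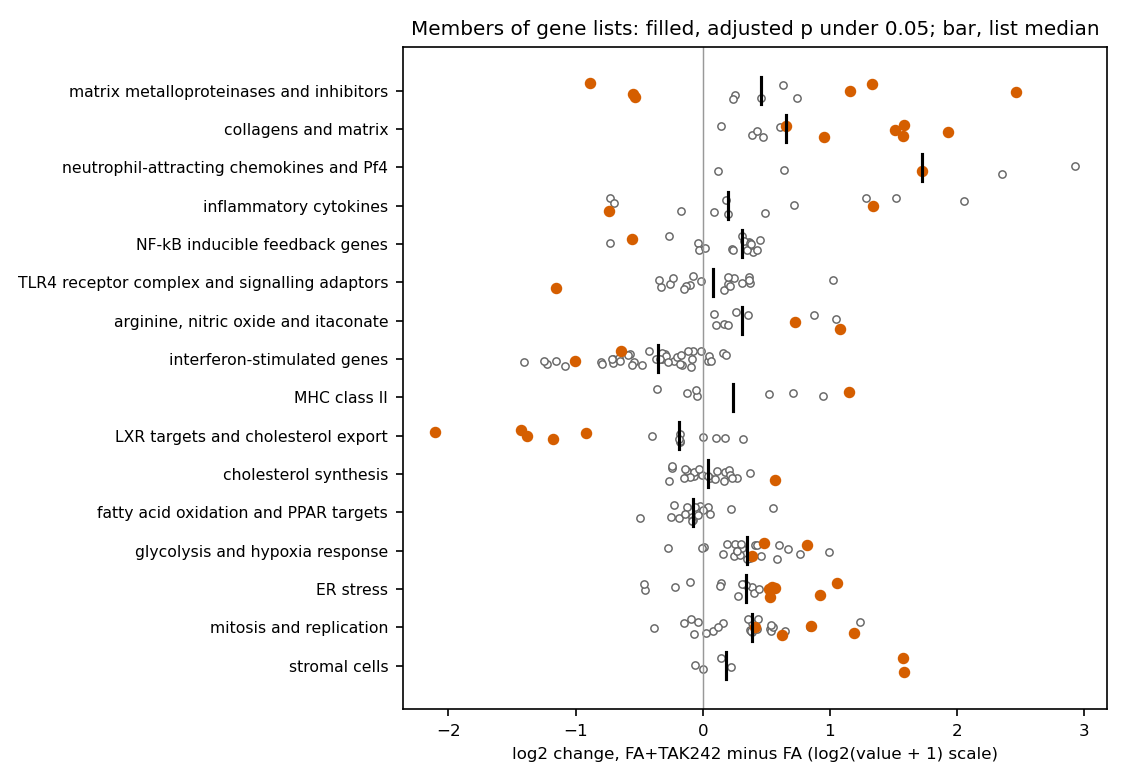
Log2 change, TAK242 minus fatty acid alone (horizontal axis), for the tested members of 16 gene lists (FA, fatty acid); filled points passed the threshold and the black bar is the list's median. Collagens and matrix genes lie to the right with 6 called, LXR targets have 5 called to the left, and interferon-stimulated genes lie mostly left of 0 with 2 called.

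Chaperones of the endoplasmic reticulum fold secreted proteins, and their genes are induced when unfolded protein builds up. Of 19 genes tested in a list of such chaperones and stress factors 6 rose and 0 fell, beside 3.01% of all genes that rose; 4 changes were negative and the median was 0.34. The groups did not overlap in 13 with higher TAK242 libraries, against 18.1% of all genes. The windows of Calr and Creld2, chr8:84846932-84847181 on the minus strand and chr15:88819396-88819645 on the plus strand (RefSeq, GRCm38.p6, 250 bases before the start), are shown because both rose and hold the endoplasmic reticulum stress response element, in capitals.
Calr: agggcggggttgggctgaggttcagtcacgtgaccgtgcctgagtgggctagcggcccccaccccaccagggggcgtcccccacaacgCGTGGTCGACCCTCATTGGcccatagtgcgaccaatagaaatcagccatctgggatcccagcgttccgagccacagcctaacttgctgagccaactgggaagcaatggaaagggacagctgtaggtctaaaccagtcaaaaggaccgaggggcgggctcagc
Creld2: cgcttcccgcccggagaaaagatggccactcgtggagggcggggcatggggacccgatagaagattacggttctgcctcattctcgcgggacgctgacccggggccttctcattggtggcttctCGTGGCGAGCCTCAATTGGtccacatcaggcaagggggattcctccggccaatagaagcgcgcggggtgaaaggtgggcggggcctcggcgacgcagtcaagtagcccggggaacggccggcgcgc
The element searched was CCAAT, 9 bases of any kind and CCACG, on either strand, and 0.113% of 32851 windows hold it. Of 17 list members with a window 5 held it, among them Hspa5, Hsp90b1 and Pdia6, which were not called. Of the 5 called members with a window 2 held it.

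Sdf2l1, a cofactor of the chaperone BiP, was at 7.12, 6.07 and 5.77 with fatty acid and at 11.6, 15.8 and 11.6 with TAK242 (0.93, standard error 0.14, adjusted p = 0.00953). Hyou1, a large chaperone of the same compartment, was at 26.2, 25.4 and 22.6 against 52.9, 62.7 and 43.7 (1.06, standard error 0.18, adjusted p = 0.013). Calr, the calcium-binding chaperone calreticulin, was at 377.7, 385.6 and 344.8 against 537.1, 610.0 and 465.0 (0.53, adjusted p = 0.0315). The groups were separate in each. Edem1, Pdia4 and Creld2 rose by 0.54 (adjusted p = 0.0135), 0.52 (adjusted p = 0.0338) and 0.56 (adjusted p = 0.0443). None of the 6 calls held without each library, and 0 to 6 were made with a library left out. The highest adjusted p ran from 0.0524 for Sdf2l1 to 0.166 for Creld2. Hspa5, which encodes BiP, was at 131.7 to 160.5 against 183.2 to 230.0 without passing (0.40, adjusted p = 0.105). Ddit3, the stress factor CHOP, lay lower, at 35.7 to 41.0 against 24.0 to 31.6 (-0.45, adjusted p = 0.413).

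Glycolysis and hypoxia genes lay slightly higher, with 3 rises and 0 falls among 25, beside 3.01% of all genes that rose. There were 23 positive changes and the median was 0.35. Aldoc, an aldolase, was at 1.22, 1.2 and 1.09 with fatty acid and at 2.94, 3.01 and 2.58 with TAK242 (0.82, adjusted p = 0.0174, up to 0.0855). Pfkp and Pgam1 rose by 0.48 (adjusted p = 0.0405) and 0.38 (adjusted p = 0.0489), and 0 to 2 of the list rose with a library left out. Tkt, transketolase of the pentose phosphate pathway, rose from between 41.6 and 42.5 to between 63.4 and 74.2 (0.73, adjusted p = 0.00385) and held without each library. So did Impdh1, an enzyme of guanine nucleotide synthesis, at 8.28 to 9.93 against 16.6 to 21 (0.97, adjusted p = 0.00179). Cell division genes were low in all 6 libraries, with 4 rises and 0 falls among 27, beside the same 3.01%. Their median was 0.39. Rrm2, of ribonucleotide reductase, was at 0.911 to 1.25 against 2.28 to 5.32 (1.19, adjusted p = 0.0339, up to 0.137), beside 53.3 to 57.7 in untreated cells. Ccnb1, cyclin B1, was at 0.388 to 0.438 against 0.738 to 0.972 (0.41, adjusted p = 0.0278, up to 0.119). Of 22 nuclear-encoded respiratory chain genes and of 17 NRF2, iron and heme genes 0 passed the threshold, beside 4.69% of all genes called.

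S100 genes, small calcium-binding proteins, gave 3 rises among 8, beside 3.01% of all genes that rose, with a median of 0.26. S100a4 was at 28.4, 30.5 and 21.9 with fatty acid and at 86, 89.8 and 67.1 with TAK242 (1.56, standard error 0.15, adjusted p = 0.000665). Its groups were apart and the call held, but the gene overlaps Gm42674, so their reads cannot be separated. S100a10 rose by 0.41 (adjusted p = 0.0315, up to 0.124). Of 18 antimicrobial and acute phase genes Hp, haptoglobin, rose from between 66.2 and 98.3 to between 143.7 and 193.4 (0.95, adjusted p = 0.0117, up to 0.0584), and Cp, ceruloplasmin, fell from between 92.5 and 102.1 to between 43.7 and 53.5 (-1.01, adjusted p = 0.0176, up to 0.0749). Saa3, an acute phase apolipoprotein, was uneven: TAK242 replicates 1 and 2 stood above every fatty acid library and replicate 3, at 11670, stood below them all (1.09, adjusted p = 0.241).

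Some genes of monocytes and lymphocytes were among the falls. Plac8, a gene of inflammatory monocytes, was at 3.35, 3.54 and 3.29 with fatty acid and at 0.74, 0.706 and 1.31 with TAK242 (-1.21, standard error 0.13, adjusted p = 0.00154). The groups were apart, the call held without each library, and Plac8 was at 1.22 to 1.72 with LPS alone. Of 6 monocyte markers tested 2 fell and 0 rose, beside 1.68% of all genes that fell. Of their changes 2 were positive and 4 negative. The summed level of the list was 46.52 to 47.38 with fatty acid and 29.56 to 40.01 with TAK242. Ace, Ccr2 and Vcan were below the filter. Cd79b, of the B cell receptor, was at 1.95 to 2.57 against 0.549 to 0.917 (-0.86, standard error 0.13, adjusted p = 0.00928) and held without each library. The 2 of 11 lymphocyte markers tested were Cd79b and Cd4, their list summed to 3.001 to 3.658 against 0.9614 to 1.39, and the B cell genes Cd79a and Ms4a1 were below the filter. Cd22, a B cell lectin also found on other cells, fell by 1.24 (adjusted p = 0.00676) and held, but Gm29439 covers it on the other strand. Neutrophil markers gave 0 calls among 7 and sums of 145.4 to 156.8 against 131.2 to 163.4. The part of other cell types in these falls was not tested.

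Further falls held without each library. Serpina3g, an intracellular protease inhibitor, was at 4.07, 3.36 and 3.09 with fatty acid and at 0.313, 0.273 and 0.818 with TAK242 (-1.63, standard error 0.15, adjusted p = 0.000665). Wfdc17, a small secreted protein of macrophages, was at 1579 to 1711 against 949.1 to 1088 (-0.68, adjusted p = 0.00688). Fcrls, an Fc receptor-like gene, was at 5.03 to 5.3 against 2.04 to 2.38 (-0.92, adjusted p = 0.000477). All 3 had separate groups. Pecam1, an adhesion molecule, fell by 0.62 (adjusted p = 0.00862), Scimp, an adaptor of TLR signalling, by 1.12 (adjusted p = 0.00523), and Nr1d2, a circadian repressor, by 0.70 (adjusted p = 0.00379). Odc1, the first enzyme of polyamine synthesis, fell by 0.50 (adjusted p = 0.00716). Trf, transferrin, fell by 0.91 (adjusted p = 0.00385) but overlaps Gm20425. Cbr2 and Dclre1c fell by 1.31 (adjusted p = 0.0225, up to 0.106) and 1.14 (adjusted p = 0.0146, up to 0.0586). Raver2 and Bclaf1 also passed, at -3.49 (adjusted p = 0.0371, up to 0.131) and -1.57 (adjusted p = 0.0171, up to 0.0749), yet both jumped between libraries of other groups: Raver2, which lies against Jak1, was at 0.02, 14.1 and 13.4 with LPS alone, and Bclaf1 at 15.4, 16.6 and 6.24 in untreated cells.

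Further rises that held without each library had varied roles. Serf1 was at 10.6, 8.71 and 7.89 with fatty acid and at 29.9, 38.8 and 24.7 with TAK242 (1.66, standard error 0.22, adjusted p = 0.00412). Arhgef1, a guanine nucleotide exchange factor, was at 8.12 to 11.7 against 22.9 to 23.9 (1.20, adjusted p = 0.00165). Atp8b4, a phospholipid flippase gene, was at 5.76 to 7.16 against 13.7 or more (1.25, adjusted p = 0.00412). The groups were apart in all 3. Mpp6, a membrane scaffold, rose by 1.25 (adjusted p = 0.00865), Cdk18, a cyclin-dependent kinase, by 0.93 (adjusted p = 0.00104), Ap2a1, of the clathrin adaptor, by 0.71 (adjusted p = 0.00676) and Hgsnat, a lysosomal enzyme, by 0.50 (adjusted p = 0.0043). Among the largest rises, Uchl1, a deubiquitinase, H2-M2, an MHC class Ib gene, and Shmt1, of folate metabolism, did not hold: they rose by 2.17 (adjusted p = 0.00931, up to 0.0534), 1.60 (adjusted p = 0.0278, up to 0.122) and 1.60 (adjusted p = 0.0315, up to 0.129).

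Some of the named genes are set here beside LPS alone, as examples that do not stand for all genes. Against LPS alone, 37.2% of genes changed with fatty acid and 5.89% with fatty acid and TAK242; each comparison shares libraries with the one above, so their values are given side by side and their overlap is not read. Col18a1 was at 11.5 to 13.8 with LPS alone, and its difference from LPS alone was -1.91 with fatty acid (adjusted p = 3.31e-05) and 0.02 with TAK242 (adjusted p = 0.931). Apoe was at 557.5 to 757.3 with LPS alone, with differences of 1.48 (adjusted p = 0.000286) and 0.04 (adjusted p = 0.881). Lbp gave 1.48 (adjusted p = 9.28e-05) and 0.33 (adjusted p = 0.116). In these 3 genes the TAK242 libraries did not differ from LPS alone past the threshold, which does not show that they were equal.

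Other genes stayed between the levels with fatty acid and with LPS alone. Pf4 was at 1569 to 2387 with LPS alone, with differences of -2.68 (adjusted p = 3.31e-05) for fatty acid and -0.95 (adjusted p = 0.028) for TAK242. Csf2ra gave -2.47 (adjusted p = 0.000109) and -0.90 (adjusted p = 0.0419), and Cd5l gave 3.12 (adjusted p = 3.31e-05) and 1.01 (adjusted p = 0.0293). In these 3 genes both groups differed from LPS alone in the same direction, fatty acid alone by more. Tnf, which did not pass between the compared groups, was lower than with LPS alone in both, by -1.71 (adjusted p = 0.00665) and -1.51 (adjusted p = 0.0484). Every comparison with LPS alone, here and above, includes LPS replicate 1, and none was fitted without it. That library was 0.782 to 0.801 from the fatty acid libraries, against 0.471 to 0.601 for LPS replicates 2 and 3. S100a4 was highest in untreated cells, at 678.5 to 832.7, and Cd5l was too, at 70.6 to 90.6. The summed monocyte list lay farther from LPS alone with TAK242 than without. It was 49.5 to 88.38 with LPS alone, 46.52 to 47.38 with fatty acid and 29.56 to 40.01 with TAK242.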

How the data were processed

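RNA-seq values of 12 macrophage libraries in 4 groups of 3 were used, from the table that holds the fatty acid groups. The deposited values, written with decimal commas, are of another unit than counts: the authors' quantification, unit and normalization are not given in the sources used here, so depth is unknown. They resemble a length-normalized level. The tools named, per the submitters' processing notes, are HISAT2 2.0.5, Trim Galore 0.4.1, FastQC 0.11.5 and CASAVA 1.8.2; builds mm10 and mm9 appear there with no role. Gene coordinates equal GRCm38 GENCODE M21 in 46895 of 50645 genes, and 50336 IDs had a symbol in the reference name table. Left out were 36 entries of 17 gene IDs with numbers displaced into annotation columns.

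Genes at 1 or more in at least 3 of 12 libraries (10476) were fitted as log2(value + 1) with limma 3.58.1 (R 4.3.3), using its mean-variance trend. All 4 groups shared the spread. P-values were adjusted by Benjamini-Hochberg over these genes, with 0.05 as the threshold; every adjusted p in the text is limma's. Fold changes on this scale understate those of low genes. On simulated data for this comparison (10476 genes, 200 changed) 77% of 2-fold and 95% of 4-fold changes were recovered, with 16 false among 188 calls. The simulated noise was normal and independent between genes, with no library that stood apart as LPS replicate 1 did. Changes were set only in genes above a minimum level with fatty acid. The rates therefore do not carry over to low genes or to these libraries. The alternatives tried were other filters, a pseudocount of 0.1, median-ratio scaling, the 6 libraries alone, leaving out each library or LPS replicate 1, a replicate block and library weights.

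Genes were named by rule: the 10 largest rises and falls with separate groups and a mean of 10 or more in the higher group, 3 members of each list by adjusted p, calls that held without each library at a mean of 5 or more, and focal LPS genes. Some genes the rule selects are not reported here. Genes named outside it were chosen after their values were seen. The comparison, the 39 lists and the tests were chosen with earlier results of these data known. Promoter windows and symbols came from RefSeq tables (GRCm38.p6). Tables and figures used Python 3.11.15, pandas 2.3.3, numpy 2.4.6 and matplotlib 3.10.9.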

Additional observations from a re-analysis of the deposited data

How the results depend on the processing

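The count of changed genes (491) depended on the processing. It was 276 without a filter, 770 with median-ratio scaling, 1110 with the 6 libraries alone, 1227 without LPS replicate 1 and 1808 with library weights, and 63 to 305 with a library left out. The count of at least 2-fold (71) was 38 without a filter, 154 with a pseudocount of 0.1, 107 with library weights and 28 to 66 with a library left out; it was 98 with the 6 libraries alone and 101 without LPS replicate 1. The 52 calls that held without each library became 106 with scaling (52 shared), 80 with the libraries of the 2 groups alone (33 shared) and 60 with a pseudocount of 0.1 (45 shared). The cause of these shifts was not tested. Of the calls 64.2% were higher, against 50.4% without a filter and 79.7% without fatty acid replicate 1. With weights it was 54.8%.

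Same-numbered libraries of the 2 groups did not deviate together over all genes (correlations of -0.081, -0.0271 and -0.0179). A pairing that is weak or touches few genes would not show in this measure, so whether the numbers pair them is unknown. With the replicate number as a block 373 genes were called over 12 libraries and 61 over the 6, and 67 and 49 by at least 2-fold. Of the 146 genes the naming rule takes, called or not, 0 changed direction under any alternative that gave them a value. Of 82 called named genes 40 were called with each library left out. Depth limits low genes in an unknown way, since no counts were used.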
